A study of Mus musculus with 3 samples.

Results

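The 10 genes described here encode the pore-forming subunits of voltage-gated sodium channels (Scn1a, Scn2a, Scn3a, Scn8a and Scn9a) and of high-voltage-activated calcium channels (Cacna1a, Cacna1b, Cacna1c, Cacna1d and Cacna1e). They were chosen by symbol among the 31040 genes of the count table, and all 10 were found. The counts came from nuclei of lumbar spinal cord, sequenced one by one (snRNA-seq), of 12 mice that were 90 days old. Of these, 6 were SOD1G93A mice (B6.Cg-Tg(SOD1G93A)1Gur/J, 3 females and 3 males), which carry many copies of a mutant human SOD1 transgene and serve as a model of amyotrophic lateral sclerosis, and 6 were C57BL/6J littermates, called WT (3 females and 3 males). The transgene runs from the human SOD1 promoter and is therefore not limited to 1 cell type. Each of 3 pools (A, B and C) combined the hashtagged nuclei of 4 mice, 1 per sex and genotype, so that the mouse is the replicate and the pool is the batch. The deposited annotation divides the 14662 nuclei into 10 cell types, and the 8800 neurons other than motor neurons into 9 sub-types, apart from 27 neurons with none.

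Voltage-gated sodium channels carry the inward current of the action potential. Nav1.1 (Scn1a), Nav1.2 (Scn2a), Nav1.3 (Scn3a), Nav1.6 (Scn8a) and Nav1.7 (Scn9a) are separate genes with similar pores, of which Nav1.6 dominates at mature axon initial segments and nodes of Ranvier, Nav1.3 is most abundant during development and Nav1.7 is best known from nociceptive sensory neurons. Calcium channels of the CaV2 group, P/Q-type (Cacna1a), N-type (Cacna1b) and R-type (Cacna1e), open presynaptically and trigger transmitter release, whereas the L-type CaV1 channels (Cacna1c and Cacna1d) are mostly somatic and dendritic. In motor neurons, L-type channels with a CaV1.3 pore (Cacna1d) contribute to the persistent inward current that sustains firing.

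In neurons 4 of the 5 sodium channel genes differed between the excitatory and inhibitory sub-types named ventral and those named dorsal. Scn1a, Scn8a and Scn9a were higher in ventral than in dorsal excitatory and inhibitory sub-types in 12 of 12 mice, and Scn3a and the calcium channel gene Cacna1e were higher in the dorsal ones in 12 of 12 mice. The ventral cholinergic neurons did not share the levels of the ventral excitatory and inhibitory sub-types for Scn1a, Scn3a, Scn8a and Cacna1e. Motor neurons held 16.2% of the Cacna1e level and 37.0% of the Scn3a level of other neurons, and 157% of their Cacna1d level. The genotype effect on the 10 genes did not pass FDR < 0.1 in any cell type or neuron sub-type. The largest in motor neurons was that of Cacna1d, whose level in SOD1G93A mice was lower in 6 of 6 comparisons of mice of the same sex and pool, with an adjusted p of 0.114 (limma-voom).

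Positions are those of the GENCODE annotation of GRCm38, the build of the mm10 reference. On chromosome 2, 4 of the sodium channel genes described here lie near each other: Scn3a at chr2:65457118-65567627 on the minus strand, Scn2a at chr2:65620771-65767447 on the plus strand, Scn1a at chr2:66270778-66440840 on the minus strand and Scn9a at chr2:66480080-66634962 on the minus strand. Scn8a lies apart from these at chr15:100869858-101045938 on the plus strand. The calcium channel genes are scattered, with Cacna1a at chr8:84388440-84640246 (plus strand), Cacna1b at chr2:24603887-24763152, Cacna1c at chr6:118587240-119196418, Cacna1d at chr14:30039939-30491455 and Cacna1e at chr1:154390731-154884501 (minus strand for these 4). The spans run from 110.5 kb for Scn3a to 609.2 kb for Cacna1c, and most of each is intron. Since nuclear RNA was counted over introns as well as exons, longer genes can collect more UMIs, so that levels are compared below between populations for 1 gene and never between genes.

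The RefSeq promoter table (GRCm38.p6) held windows for 8 of the 10 genes, and Scn3a and Cacna1a had none. The 250 bases before a start are printed for the ventral genes Scn1a, Scn8a and Scn9a and the dorsal gene Cacna1e, as examples of genes that differed between sub-types, and for the 2 start sites of Cacna1d, because this gene was the nearest to a genotype call. Sequences run 5′ to 3′ on the strand of the gene, which is plus for Scn8a and minus for the others, and capitals mark the motifs GGGCGG (GC box), TATAAA and CCAAT on either strand.
Scn1a, chr2:66440838-66441087: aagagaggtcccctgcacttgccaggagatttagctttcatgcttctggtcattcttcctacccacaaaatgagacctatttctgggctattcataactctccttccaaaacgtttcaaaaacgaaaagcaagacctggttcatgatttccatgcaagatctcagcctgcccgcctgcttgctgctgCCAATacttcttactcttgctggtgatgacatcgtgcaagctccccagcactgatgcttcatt
Scn8a, chr15:100870395-100870644: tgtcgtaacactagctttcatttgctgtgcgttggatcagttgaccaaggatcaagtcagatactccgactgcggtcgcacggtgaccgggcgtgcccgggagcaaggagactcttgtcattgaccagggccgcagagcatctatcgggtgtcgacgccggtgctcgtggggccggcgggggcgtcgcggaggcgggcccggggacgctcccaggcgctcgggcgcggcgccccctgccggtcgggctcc
Scn9a, chr2:66634963-66635212: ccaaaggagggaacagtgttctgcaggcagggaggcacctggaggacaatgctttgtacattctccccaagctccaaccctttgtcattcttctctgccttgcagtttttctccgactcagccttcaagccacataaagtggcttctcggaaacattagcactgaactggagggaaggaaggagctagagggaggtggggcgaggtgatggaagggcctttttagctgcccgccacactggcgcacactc
Cacna1e, chr1:154725921-154726170: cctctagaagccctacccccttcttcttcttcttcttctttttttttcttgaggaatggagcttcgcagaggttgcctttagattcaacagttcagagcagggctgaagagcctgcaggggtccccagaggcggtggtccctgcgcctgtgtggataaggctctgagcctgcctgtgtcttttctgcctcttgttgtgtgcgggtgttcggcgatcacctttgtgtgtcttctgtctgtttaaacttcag
Cacna1d, first start, chr14:30491157-30491406: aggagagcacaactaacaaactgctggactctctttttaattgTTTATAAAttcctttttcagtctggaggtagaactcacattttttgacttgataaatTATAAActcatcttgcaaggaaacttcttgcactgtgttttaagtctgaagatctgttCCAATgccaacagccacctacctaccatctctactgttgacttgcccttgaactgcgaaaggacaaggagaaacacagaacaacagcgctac
Cacna1d, second start, chr14:30353487-30353736: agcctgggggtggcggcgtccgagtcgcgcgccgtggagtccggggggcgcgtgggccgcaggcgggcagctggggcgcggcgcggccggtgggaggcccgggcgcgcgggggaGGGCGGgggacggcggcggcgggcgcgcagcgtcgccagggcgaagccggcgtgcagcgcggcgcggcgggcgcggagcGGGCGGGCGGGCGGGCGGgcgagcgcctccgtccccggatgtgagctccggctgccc
Over all 32851 windows of this length, 32.7% held GGGCGG, 33.8% CCAAT, 12.4% TATAAA, 6.02% the E-box CACGTG and 0.301% TTCAGCACC, which is part of the element bound by the repressor REST. The printed windows of the 3 ventral genes and of Cacna1e held neither GGGCGG nor TATAAA nor TTCAGCACC, and Scn1a held 1 CCAAT. Scn8a had a second window, chr15:100936021-100936270, which is not printed and held none of these motifs. The windows of Scn8a, Cacna1e and Cacna1d lie within the gene spans given above, so other starts of these genes are possible. The starts of Cacna1d differed from each other. The second window had 86.4% G and C with 5 overlapping or separate GGGCGG matches, and the first had 39.6% with 1 CCAAT and 3 TATAAA matches over both strands, 2 of which overlap. None of the 13 windows of these genes held TTCAGCACC or CACGTG.

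The libraries held 548 to 2259 nuclei and 6411715 to 36668441 UMIs per mouse, and 15 nuclear barcodes occurred in more than 1 pool (30 nuclei). Levels are CPM, that is, the UMIs (unique molecules counted) of a gene scaled to a common total of UMIs for each population and mouse, and are given as mean ± SD over mice. As a check of the genotype labels, the UMIs counted for Sod1 were higher in SOD1G93A mice, 2.45-fold in neurons (adjusted p = 0.00246 in limma-voom) and 14.4-fold in motor neurons. The cell types were assigned by the authors from clusters of the same expression values, so levels between cell types are descriptions and carry no test. Some nuclei with non-neuronal labels held high levels of neuronal genes. The 1031 nuclei labelled as Schwann and meningeal cells had a median of 1584 UMIs and 3246 CPM of the neuronal gene Snap25, 423% of its level in neurons, while the other 4 neuronal markers stood at 45.6% to 67.7%, and the 223 nuclei labelled as microglia had a median of 46927 UMIs, 33.0 CPM of Cx3cr1 and 229 CPM of the neuronal gene Rbfox3, against 354 CPM in neurons.

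Across the 8 cell types with nuclei of every mouse, 8 of the 10 genes had their highest mean in neurons or motor neurons. The exceptions were Scn1a and Scn8a, highest in the nuclei labelled as Schwann and meningeal cells, at 659.6 ± 148 and 439.6 ± 78.8 CPM. For Scn8a the paired difference of these nuclei from motor neurons was within 1 SD (55.2 ± 89.6 CPM). Scn2a in neurons was above its level in these nuclei in only 6 of 12 mice (13.9 ± 77.8 CPM). Over alternative ways to compute the levels, 7 to 8 genes were highest in neurons or motor neurons. In neurons, which supplied 146342488 UMIs, the 12 mice lay close together. Scn2a had a lowest value of 324, a median of 341 and a highest value of 363 CPM, and Cacna1d 439, 475 and 493 CPM. Scn1a ranged from 446 to 529 CPM with a median of 497, Scn8a from 288 to 411 with a median of 339.9, and Scn3a from 124 to 163 with a median of 149. Scn9a, the sodium channel gene with the widest spread, ranged from 128 to 265 CPM with a median of 192.5. Its mean was 194 CPM in pool A, 223 in pool B and 145 in pool C.

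The calcium channel genes in neurons were as even, apart from Cacna1c and Cacna1e. Cacna1a had a lowest value of 683, a median of 735 and a highest value of 794 CPM. Cacna1b lay between 256 and 303 CPM with a median of 286. Cacna1c ranged from 680.0 to 1045 CPM with a median of 903, and Cacna1e from 454 to 695 with a median of 600.4. The pool means of Cacna1c ran in the opposite order to those of Scn9a. They were 858 CPM in pool A, 796 in pool B and 970.4 in pool C. The mice of pool A alone ranged from 725 to 967 CPM for Cacna1c and from 128 to 245 CPM for Scn9a.

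**Figure D1:**
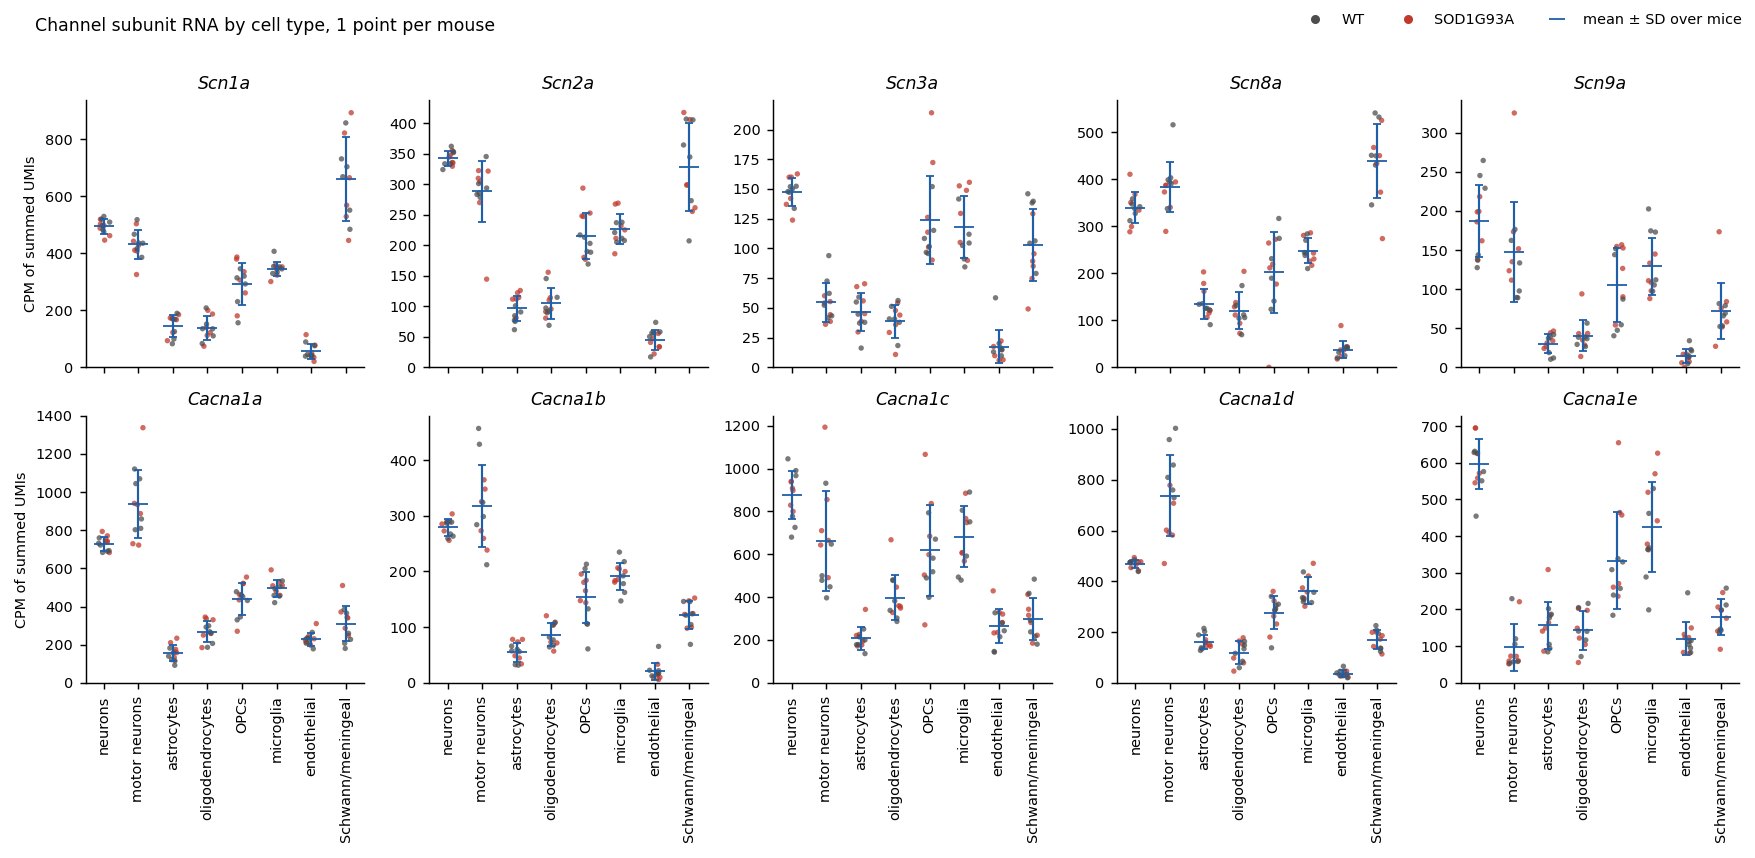
Level of each gene (vertical axis, CPM of summed UMIs, from 0) in the 8 cell types with nuclei of every mouse. Each point is 1 mouse (WT grey, SOD1G93A red) and the blue bar is the mean ± SD; the highest mean is that of neurons or of motor neurons for 8 of the 10 genes, and endothelial nuclei are lowest for 7, while Scn1a and Scn8a are highest in nuclei labelled as Schwann and meningeal cells.

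In several glial populations the 10 genes stood at shares of their neuronal level near those of neuronal markers. In nuclei labelled as microglia the 10 genes stood at 66.0% to 80.2% of their level in neurons, all above the 64.4% to 65.8% of 5 neuronal markers (Rbfox3, Grin1, Camk2a, Snap25 and Syt1). In oligodendrocytes the genes stood at 21.5% to 45.5% and the markers at 21.8% to 35.8%. In astrocytes the genes stood at 16.2% to 39.7% and the markers at 16.5% to 56.9%. Whether RNA from neurons or doublets within a mouse entered these nuclei was not tested.

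Some genes stood out from the neuronal markers of the same population. In endothelial cells, Cacna1a stood at 31.4%, Cacna1c at 30.3% and Cacna1e at 20.3% of the level in neurons. The neuronal markers stood at 7.19% to 18.3% and the 5 sodium channel genes at 7.53% to 13.2%. Cacna1b, at 7.34%, and Cacna1d, at 7.76%, were also within the range of the markers. Cacna1c, whose channel carries the calcium current of heart and vascular smooth muscle, was at 265 ± 81.1 CPM in these nuclei. The part of pericytes and smooth muscle cells of vessels under this label was not tested. In fibroblasts (46 nuclei in 10 mice) Cacna1c was at 1402 ± 1301 CPM, or 160.3% of its level in neurons. Its values there ran from 199 to 3966 CPM and rest on 224 UMIs. The median was 964 CPM, against a median of 903 CPM in neurons, so the share of the means rests on high values in some mice. In ependymal cells (93 nuclei in 11 mice) Cacna1d stood at 426 ± 163 CPM, 90.8% of its level in neurons, on 102 UMIs, where the neuronal markers stood at 3.85% to 83.5%. Its log2 ratio to neurons over the mice was −0.34 ± 1.02. In OPCs, precursors of oligodendrocytes (181 nuclei, 2 to 26 per mouse), all 10 genes stood above the 37.6% to 52.8% of the neuronal markers. They ran from 55.0% for Cacna1b to 70.6% for Cacna1c and 84.1% for Scn3a. All 10 genes also stood above the markers in nuclei labelled as microglia. Scn8a in OPCs ran from 0 to 317 CPM over the mice.

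Motor neurons, the cells that degenerate in this model, numbered 67 nuclei, 1 to 11 per mouse. Their labels held against their markers, with Chat at 155 CPM and Slc5a7 at 223 CPM against 5.13 and 7.97 CPM in other neurons. Since the median of 5954 genes with at least 20 CPM was 0.21 lower in motor neurons on the log2 scale, the ratios of single genes are read against that value. Cacna1e was lowest relative to other neurons. It had a lowest value of 51.7, a median of 66.3 and a highest value of 229 CPM in motor neurons, below every value in other neurons, and its log2 ratio was −2.81 ± 0.71 (SD, n = 12), below 0 in 12 of 12 mice. Scn3a followed with 36.2, 53.1 and 94.0 CPM in motor neurons, also below every value in other neurons, and a log2 ratio of −1.47 ± 0.40 in 12 of 12 mice. Against VE alone the log2 ratios were −1.69 ± 0.68 for Cacna1e and −0.63 ± 0.38 for Scn3a, and Scn3a in VI, at 67.8 ± 13.6 CPM, was within 1 SD of the paired difference from motor neurons. Against all other neurons, Cacna1e and Scn3a were the 2 of 10 genes with ranges below those of other neurons that did not overlap, where 5.84% of all genes had this pattern. In the other direction none of the 10 genes had ranges that did not overlap, where 4.37% of all genes did.

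Cacna1d was the gene most enriched in motor neurons among the 10. Its level ran from 470.0 to 1003 CPM with a median of 745 in motor neurons, and 1 mouse, the SOD1G93A female of pool C with 1 nucleus, lay within the range of other neurons. Its log2 ratio was 0.62 ± 0.30, above 0 in 12 of 12 mice. Cacna1a, the channel of neuromuscular transmission, had a log2 ratio of 0.34 ± 0.25 (11 of 12 mice above 0). Against VE alone its ratio was 0.23 ± 0.25 (10 of 12), and the paired difference in CPM was within 1 SD. Scn8a had a ratio of 0.17 ± 0.25 (11 of 12, but −0.37 ± 0.26 and below 0 in 11 of 12 against VE) and Cacna1b of 0.15 ± 0.29 (8 of 12). Scn1a, at −0.20 ± 0.17, and Scn2a, at −0.27 ± 0.31, were near the median of all genes. Scn9a, at −0.40 ± 0.48, and Cacna1c, at −0.46 ± 0.41, were below it by less than their SD. The mean depth differed between the populations, with a median of 53245 UMIs per nucleus in motor neurons and 12864.5 in other neurons.

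The 9 neuron sub-types were named by mapping to a published reference as dorsal, mid or ventral and excitatory or inhibitory (DE, DI, ME, MI, VE and VI), with ventral cholinergic neurons other than motor neurons (VC), a ventral mixed group (VM) and neurons of unclear type. Their transmitter markers followed the names, with Slc17a6, the vesicular glutamate transporter, at 116 CPM in DE and 11.8 in DI, and Slc6a5, the glycine transporter, at 151 CPM in VI and 48.5 in VE. For each mouse the ventral value was the mean of log2(CPM + 1) in VE and VI, and the dorsal value that in DE and DI.

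Scn9a had the largest ventral excess, with a log2 ratio of 1.39 ± 0.32 (2.61-fold). It stood at 109.8 ± 22.7 CPM in DE, 108 ± 28.7 in DI, 261 ± 77.5 in VE and 329.8 ± 117 in VI. As in all neurons, the mean in VE was lowest in pool C, at 185 CPM, against 295 in pool A and 302 in pool B. Mice of pool A ranged from 163 to 385 CPM in VE. The ventral value was above the dorsal one in every pool and mouse. Scn8a had a log2 ratio of 1.11 ± 0.10 (2.16-fold), with a lowest value of 182 and a highest of 235 CPM in DE against 440.2 and 583 CPM in VE. The lowest value in DI was 217 CPM and the highest 289 CPM, and in VI 305 and 604 CPM, so that no mouse had a dorsal value in the ventral range. Scn1a had a log2 ratio of 0.75 ± 0.09 (1.69-fold), with 393 ± 26.9 CPM in DE, 372 ± 22.6 in DI, 643 ± 25.8 in VE and 649 ± 51.0 in VI. Its values in VE and VI differed by less than 1 SD of the paired difference.

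Scn3a went the other way, with a log2 ratio of −1.42 ± 0.20 (2.68-fold higher dorsally). It stood at 219 ± 10.97 CPM in DE and 184 ± 18.2 in DI, and at 82.7 ± 10.6 in VE and 67.8 ± 13.6 in VI. The lowest dorsal value was 157 CPM in DI and the highest ventral value was 101 CPM in VE. Scn2a was nearly level, at 351 ± 17.5 CPM in DE, 342 ± 28.2 in DI, 338 ± 17.6 in VE and 323 ± 36.1 in VI, a log2 ratio of −0.07 ± 0.10. The 4 sodium channel genes of this set on chromosome 2 therefore included a dorsal one (Scn3a), a level one (Scn2a) and 2 ventral ones (Scn1a and Scn9a). They are named in the order of their positions, and other genes of that region were not compared. Mid sub-types lay between, with Scn1a at 503 ± 69.3 CPM in ME and 499 ± 27.0 in MI, and Scn8a at 325 ± 51.0 and 334 ± 40.3.

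The ventral cholinergic neurons (VC), 350 nuclei with 54.5 ± 33.4 CPM of Chat, did not share the levels of VE and VI for 4 of these genes. Scn1a stood at 370.3 ± 37.9 CPM and Scn8a at 298 ± 61.9 CPM in VC, below their means in VE and VI. Scn3a stood at 186 ± 33.0 CPM, and its lowest value of 130.5 CPM was above every mouse in VE and VI. Cacna1e stood at 605 ± 171 CPM, between its dorsal and its ventral means. Of the sodium channel genes that differed between ventral and dorsal sub-types, Scn9a alone was in VC at its level in VE, with 262 ± 61.1 CPM.

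**Figure D2:**
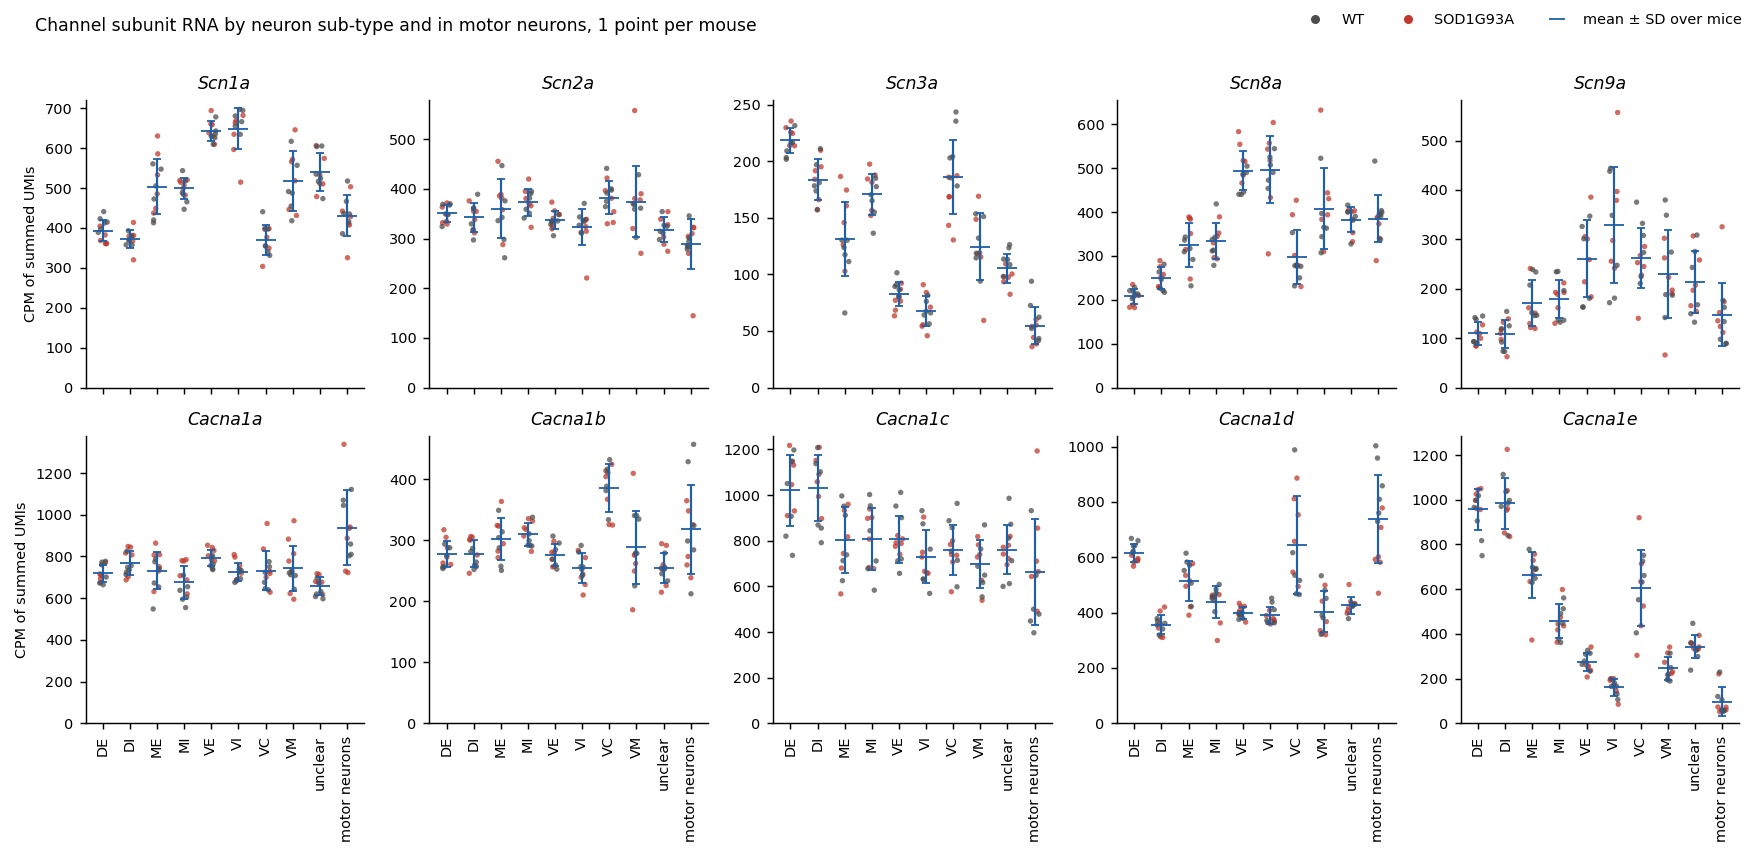
Level of each gene (vertical axis, CPM of summed UMIs, from 0) in the 9 neuron sub-types and in motor neurons. Each point is 1 mouse (WT grey, SOD1G93A red) and the blue bar is the mean ± SD; Scn1a, Scn8a and Scn9a are higher in VE and VI than in DE and DI, Scn3a and Cacna1e are lower, and Cacna1d is highest in motor neurons, VC and DE.

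Of the calcium channel genes, Cacna1e, the R-type pore, had the largest ventral to dorsal difference of the 10 genes, with a log2 ratio of −2.22 ± 0.21 (4.67-fold higher dorsally). It had a lowest value of 749.9, a median of 981 and a highest value of 1049.8 CPM in DE, and 835, 977 and 1225 CPM in DI. In VE the corresponding values were 207, 263 and 341 CPM, and in VI 85.2, 169 and 199.99 CPM, all below the dorsal ranges. From DI down the order was DE, ME, VC, MI, the unclear neurons, VE, VM, VI and motor neurons, where DI and DE, ME and VC, VC and MI, VE and VM, and VI and motor neurons differed by less than 1 SD of the paired difference. Cacna1c, at 1019.9 ± 157 CPM in DE, 1030.2 ± 145 in DI, 807 ± 103 in VE and 730.4 ± 118 in VI, had a log2 ratio of −0.42 ± 0.13, below 0 in 12 of 12 mice. Its ranges overlapped between dorsal and ventral mice. The pool means ran in the same order in both, with 1173 CPM in DE and 893 CPM in VE in pool C against 905 and 731 CPM in pool B.

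Cacna1d, an L-type pore, differed between the dorsal excitatory and dorsal inhibitory sub-types. It stood at 615 ± 32.3 CPM in DE and 357 ± 34.5 in DI, a log2 ratio of DI to DE of −0.79 ± 0.16 that was below 0 in 12 of 12 mice, and at 399 ± 20.2 in VE and 389.7 ± 30.9 in VI, a ratio of −0.04 ± 0.16. The lowest value in DE was 568 CPM and the highest in DI 420.1 CPM. VC, the other cholinergic group, had 645 ± 176 CPM, within 1 SD of motor neurons at 737 ± 159. Cacna1b, the N-type pore, was highest in VC, at 385 ± 39.0 CPM against 255 to 318 CPM in the other sub-types and motor neurons. Cacna1a, the P/Q-type pore, had means over the sub-types from 659 CPM in the unclear neurons to 791 CPM in VE, and neighbours in that order all differed by less than 1 SD.

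Counted over mice, 3 of the 10 genes (Scn1a, Scn8a and Scn9a) had ventral values that were all above the dorsal ones, where 12.6% of 5929 genes did, and 3 (Scn3a, Cacna1d and Cacna1e) had ventral values that were all below, where 8.47% did. For Cacna1d this rests on DE, since its mean in DI was below those in VE and VI. For inhibitory against excitatory sub-types, Cacna1d alone had ranges that did not overlap, lower in inhibitory ones (log2 ratio −0.35 ± 0.11). That pattern was found in 1.58% of 5960 genes, and none of the 10 had the reverse, where 1.21% did. The difference of Cacna1d was mainly that of DI to DE, at −0.79 ± 0.16. It was −0.23 ± 0.26 for MI to ME and −0.04 ± 0.16 for VI to VE. Cacna1e was also lower in inhibitory sub-types, at −0.43 ± 0.23 in 12 of 12 mice, with a log2 ratio of −0.54 ± 0.34 for MI to ME, −0.78 ± 0.49 for VI to VE and 0.04 ± 0.19 for DI to DE. Ventral nuclei held more UMIs, with medians of 19812 in VE and 23031 in VI against 10188 in DE and 11763 in DI. Within nuclei of 8000 to 20000 UMIs, a range set after the depths had been seen, the log2 ratios of ventral to dorsal were 1.41 for Scn9a, 1.21 for Scn8a, 0.81 for Scn1a, −1.55 for Scn3a and −2.07 for Cacna1e.

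**Figure D3:**
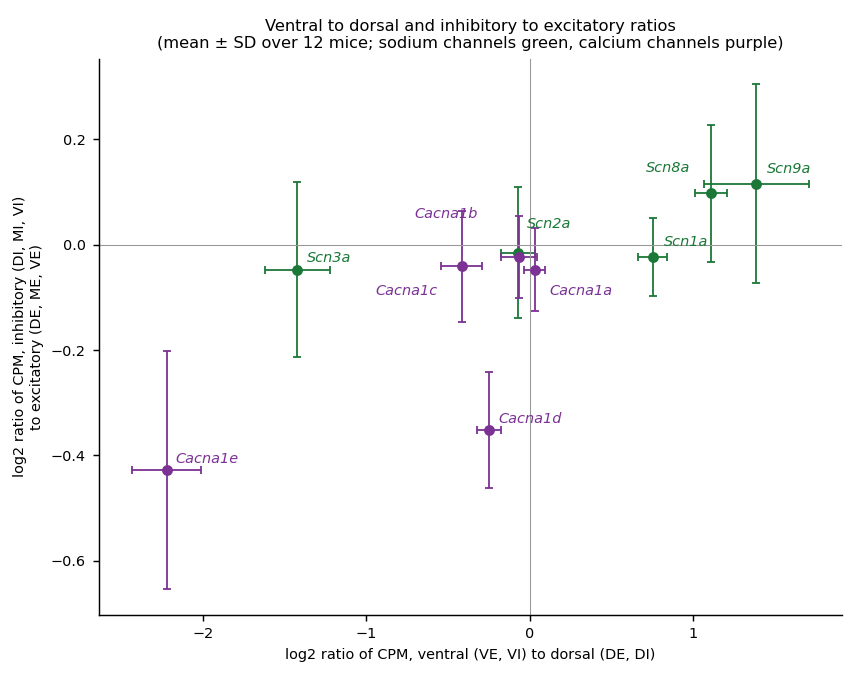
Log2 ratio of CPM between ventral and dorsal sub-types (horizontal axis) and between inhibitory and excitatory sub-types (vertical axis) for the 10 genes, as mean ± SD over 12 mice, with sodium channel genes in green and calcium channel genes in purple. The genes spread from −2.22 (Cacna1e) to 1.39 (Scn9a) along the first axis and from −0.43 to 0.12 along the second, where Cacna1e and Cacna1d are apart from 0.

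The genes whose levels were most like those of each member over the 9 sub-types and motor neurons are given as a description over 10 points, which share depth and cluster assignment. Among 5984 genes of at least 20 CPM, the closest to Cacna1e was Celf5, which encodes an RNA-binding protein (Pearson r = 0.99), followed by Baiap3 (0.98). The closest to Scn8a were Ankrd55 (0.98) and Esrrg (0.98), an orphan nuclear receptor, to Scn3a Astn1 (0.98) and Ly6h (0.97), to Scn1a 4930590J08Rik (0.97) and P2ry14 (0.97), to Scn9a B230217O12Rik (0.97) and Gys1 (0.95), and to Scn2a Pacs1 (0.97) and Adamts18 (0.94). Cacna1b was closest to Erc1 (0.98), a scaffold of the presynaptic active zone, and to Dpysl5 (0.93), and Cacna1d to Ank3 (0.91), the ankyrin that anchors sodium channels at the axon initial segment, and to Sgsm1 (0.90). Cacna1c was closest to Chgb (0.95) and Bmt2 (0.95), and Cacna1a to Tet3 (0.88) and Dlgap4 (0.87). Scn2a and Cacna1a varied least over these populations, by 0.43 and 0.49 on the log2 scale against 3.54 for Cacna1e. Their r values therefore rest on small differences. Within the set, Cacna1e and Scn3a had r = 0.92, Scn1a and Scn8a 0.86, and Scn3a and Scn8a −0.82.

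Auxiliary subunits and partners of the channels, taken from 5 lists of 53 genes, differed among themselves between sub-types. Of the sodium channel beta subunits, which bind the pore and alter its gating, Scn3b was higher dorsally (28.9 ± 4.45 CPM in DE and 6.62 ± 1.79 in VE, log2 ratio of ventral to dorsal −2.38 ± 0.57, below 0 in 12 of 12 mice). Scn4b, the subunit linked to resurgent current, was higher ventrally (10.5 ± 2.02 CPM in DE and 30.2 ± 5.81 in VE, log2 ratio 1.41 ± 0.23, 12 of 12 mice). Scn2b had a log2 ratio of 0.18 ± 0.19, above 0 in 11 of 12 mice. Of the alpha2delta subunits, which carry calcium channels to the membrane, Cacna2d1, the target of gabapentin, was at 1791 ± 144 CPM in DE and 99.6 ± 29.5 in DI (log2 ratio of DI to DE −4.22 ± 0.51), and Cacna2d3 at 236 ± 53.7 in DE and 1701 ± 253 in DI (2.87 ± 0.28), each in 12 of 12 mice. The same direction held in the ventral sub-types, with log2 ratios of VI to VE of −2.32 ± 0.69 and 0.93 ± 0.24. Cacnb2 and Cacnb4, beta subunits of calcium channels, had ventral to dorsal ratios of 0.46 ± 0.16 and 0.15 ± 0.15.

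In motor neurons Cacna2d3 was at 1806 ± 456 CPM against 855 ± 80.3 in other neurons, and Cacna2d1 at 372 ± 220.5 against 755 ± 76.8. Of the presynaptic partners, Rims1, Rims2, Erc2 and Syt1, which encode active zone scaffolds and the calcium sensor of release, had log2 ratios of motor neurons to neurons of −0.86 ± 0.33, −0.66 ± 0.21, −1.21 ± 0.51 and −0.88 ± 0.22, all below 0 in 12 of 12 mice. Of the anchors, Ank2 had 0.59 ± 0.28 and Ank3 0.30 ± 0.22, and Fgf12 and Fgf14, intracellular partners of sodium channel tails, −0.12 ± 0.17 and 0.07 ± 0.29. Of the remaining pores, the T-type genes Cacna1g and Cacna1h had ventral to dorsal log2 ratios of −2.29 ± 0.21 and −2.75 ± 0.64, Cacna1i of −0.56 ± 0.14, and Nalcn, the sodium leak channel, of −0.16 ± 0.13.

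The comparison of genotypes asked whether channel RNA differs between SOD1G93A and WT mice at 90 days. It was fitted with limma-voom on UMIs summed per mouse, with sex, genotype and pool as terms, and a gene was called at an FDR under 0.1 over all genes tested in the population. Of 79 tests of the 10 genes in cell types, 0 were called and 5 had an unadjusted p under 0.05, and the same fits by edgeR and DESeq2 also called 0. All 10 genes passed the filter on low counts in 7 cell types, 7 passed in endothelial cells, and 1 each in ependymal cells (Cacna1d) and fibroblasts (Cacna1c). Among all genes the share called was 3.07% in motor neurons, 2.29% in astrocytes, 0.0759% in microglia, 0.0475% in oligodendrocytes, 0.0411% in OPCs, 0.036% in nuclei labelled as Schwann and meningeal cells, 0.0255% in neurons, 0.0131% in endothelial cells, 0% in ependymal cells and 0% in fibroblasts. In the 9 neuron sub-types 0 of 90 tests were called and 4 had an unadjusted p under 0.05, where 0.0252% of all tests were called, and edgeR and DESeq2 called 0.

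In neurons the log2 fold changes of the 10 genes lay between −0.06 (Scn1a) and 0.08 (Cacna1e), with a median of −0.01 against 0.00 over all genes. The 95% intervals reached from −0.26 to 0.30. Scn8a had a log2 fold change of −0.00 (95% interval −0.18 to 0.17), and Scn2a of −0.02 (−0.14 to 0.10). In motor neurons the intervals were wider, up to 0.77 to each side, against 0.64 in astrocytes and 0.70 in oligodendrocytes. Of the motor neuron nuclei, 23 came from SOD1G93A mice (1 to 6 per mouse) and 44 from WT mice (4 to 11 per mouse). At these widths, 0 calls in motor neurons do not show that the levels were equal.

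In motor neurons 8 of the 10 log2 fold changes were below 0, with a median of −0.20 against 0.00 over all genes. For Cacna1d, on library sizes scaled by the TMMwsp method, the 6 WT mice had a lowest value of 831, a median of 966 and a highest value of 1167 CPM, and the 6 SOD1G93A mice 441, 631 and 843 CPM. The groups overlapped by 1 SOD1G93A mouse, that with 843 CPM, which was above the 2 lowest WT mice. The log2 fold change was −0.53 (SE 0.17, 95% interval −0.88 to −0.19, unadjusted p = 0.00425, adjusted p = 0.114 in limma-voom). It was between −0.65 and −0.45 when each mouse was left out in turn. It was called without the WT female of pool B (adjusted p = 0.0732 in limma-voom) or the WT male of pool A (adjusted p = 0.0596). These were the 2 lowest WT mice, so leaving out either widens the difference, and these calls add no support. With no filter on low counts it was −0.65 and called (adjusted p = 0.0369 in limma-voom). At a minimum count of 30 it was −0.39 (adjusted p = 0.174). In other neurons the same gene had 413, 481 and 517 CPM in WT and 422, 473 and 487 CPM in SOD1G93A mice.

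The other genes in motor neurons did not pass the threshold by a wider margin. Scn8a had 369, 463 and 568 CPM in WT and 271, 381 and 437 CPM in SOD1G93A mice (log2 fold change −0.24, 95% interval −0.58 to 0.09, adjusted p = 0.497 in limma-voom), lower in 5 of 6 pairs of the same sex and pool. Cacna1a had 878, 1117 and 1272 CPM in WT and 739, 948 and 1255 CPM in SOD1G93A mice (−0.20, −0.54 to 0.13). Scn1a had 424, 508 and 589.96 CPM in WT and 305, 448 and 515 CPM in SOD1G93A mice (−0.18, −0.51 to 0.14). Cacna1c went the other way, with 452, 566 and 1025 CPM in WT and 536, 723 and 1120 CPM in SOD1G93A mice (0.28, −0.07 to 0.63). All of these groups overlapped. Leaving out 1 mouse moved the log2 fold change of Cacna1a to between −0.30 and −0.10, of Cacna1c to between 0.16 and 0.40, of Scn1a to between −0.27 and −0.14 and of Scn8a to between −0.35 and −0.20. That of Scn3a, on 223 UMIs in motor neurons, was −0.30 with all mice and moved to between −0.45 and −0.13. The SOD1G93A female of pool C contributed 1 motor neuron nucleus with 27658 UMIs, and it gave the lowest SOD1G93A value of Cacna1d, Scn8a and Scn1a and the highest value of Cacna1c.

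**Figure D4:**
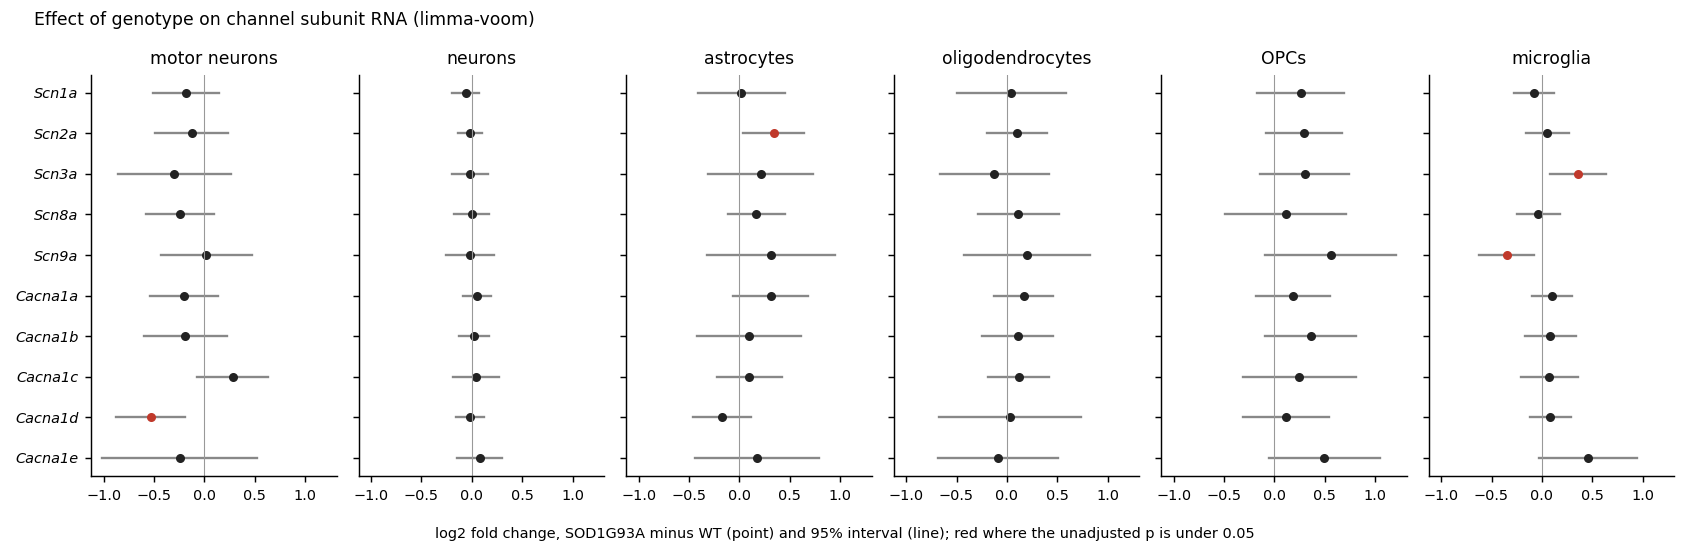
Log2 fold change of each gene between SOD1G93A and WT mice (horizontal axis, point with a line for the 95% interval of limma-voom) in 6 cell types; red points have an unadjusted p under 0.05. In neurons all points lie between −0.06 and 0.08, and in motor neurons 8 of 10 lie below 0, with Cacna1d at −0.53 furthest.

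Of the cell types with many called genes, astrocytes had 9 of 10 log2 fold changes above 0, with a median of 0.17 against 0.02 over all genes, and 0 called. Scn2a was the largest there, at 0.34 (95% interval 0.04 to 0.64, unadjusted p = 0.0297 in limma-voom, adjusted p = 0.294). The summed level of the 5 neuronal markers in astrocytes was 632 to 1066 CPM in WT and 699.6 to 1507 CPM in SOD1G93A mice. OPCs had 10 of 10 above 0, with a median of 0.28 against −0.01 over all genes, and 0 called. The smallest adjusted p there was 0.773 in limma-voom, with 95% intervals of up to 0.65 to each side. OPCs had 2 to 26 nuclei per mouse, and the 10 values come from the same nuclei and are not independent. The neuronal markers of OPCs summed to 1048 to 1594 CPM in WT and 722 to 2160 CPM in SOD1G93A mice. The part of neuronal RNA in these values was not tested. In nuclei labelled as microglia Scn3a had 0.36 (adjusted p = 0.436 in limma-voom) and Scn9a −0.35 (adjusted p = 0.437). In endothelial cells Cacna1c had 0.47 (0.05 to 0.90, adjusted p = 0.980 in limma-voom). In sub-types the smallest adjusted p was 0.650 in limma-voom, for Scn1a in DE, with a log2 fold change of −0.16 (−0.30 to −0.02).

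**Figure D5:**
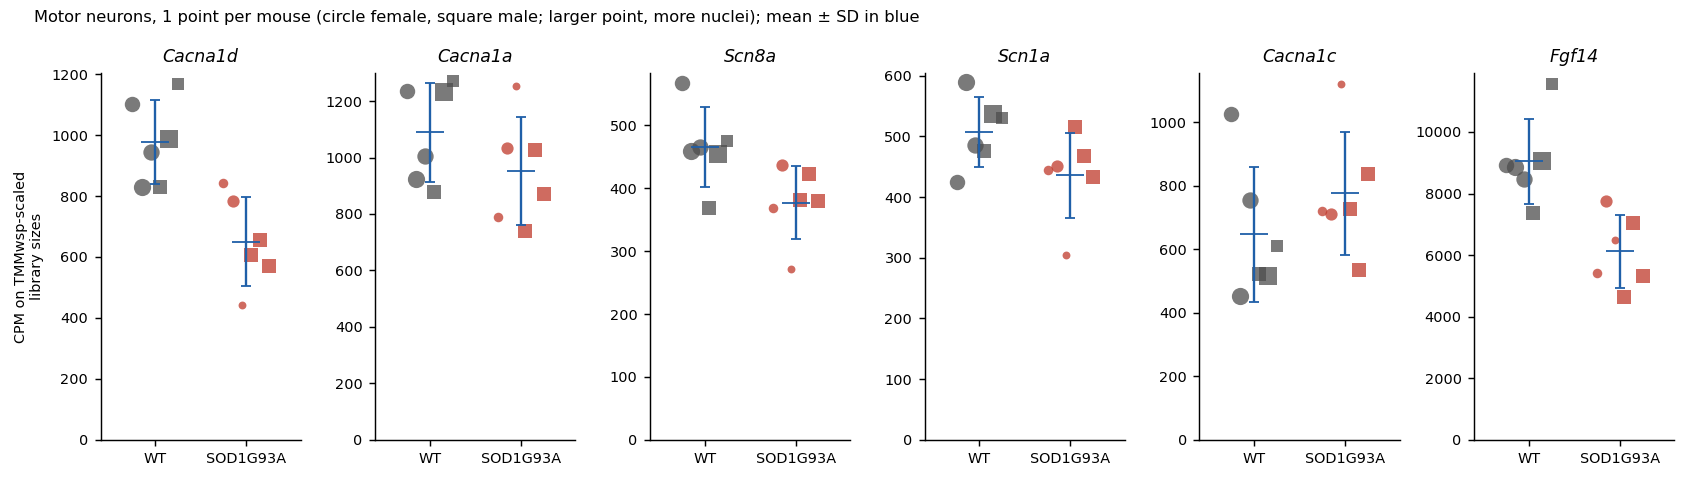
Levels in motor neurons by genotype (vertical axis, CPM on TMMwsp-scaled library sizes, from 0) for 5 of the 10 channel genes and Fgf14. Each point is 1 mouse (circle female, square male, larger for more nuclei) and the blue bar is the mean ± SD; for Fgf14 the SOD1G93A mice range from 4652 to 7772 and the WT mice from 7364 to 11564.

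Of the 53 genes in the lists of auxiliary subunits and partners, 49 passed the filter in some population, and 1 of 675 tests was called, that of Fgf14 in motor neurons. There 1 of 36 listed genes was called, where 3.07% of all genes were, so that this count is near the share over all genes. Fgf14 encodes an intracellular protein that binds the tails of sodium channels at the axon initial segment and modulates CaV2 channels. It had a lowest value of 7364, a median of 8903 and a highest value of 11564 CPM in WT and 4652, 5956 and 7772 CPM in SOD1G93A mice, and was lower in 6 of 6 pairs of the same sex and pool. The groups overlapped, since the highest SOD1G93A mouse was above the lowest WT mouse. Its log2 fold change was −0.56 (SE 0.14, 95% interval −0.84 to −0.27, adjusted p = 0.0518 in limma-voom). It missed the threshold with edgeR (adjusted p = 0.126) and without the pool term (0.106), and without each of 5 single mice, the SOD1G93A female of pool A, the SOD1G93A males of pools A and C, the WT female of pool A and the WT male of pool C (0.104 to 0.128), and the fold change lay between −0.65 and −0.50 whichever mouse was left out. In other neurons it had a median of 6548 CPM in WT and 6205 CPM in SOD1G93A mice.

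By list, none of 3 further pores that passed the filter in motor neurons was called (3 below 0, median −0.41), none of 9 auxiliary subunits of calcium channels (5 below 0, median −0.00), 1 of 9 anchors (6 below 0, median −0.10) and none of 13 presynaptic partners (8 below 0, median −0.15), against a median of 0.00 and 3.07% called over all genes. Over all lists 22 of 36 were below 0. Cacna2d1 had 0.93 (95% interval 0.23 to 1.63, adjusted p = 0.181 in limma-voom) and Cacna2d3 −0.51 (−0.86 to −0.17, adjusted p = 0.130). Fgf12 had −0.45 (−0.73 to −0.16, adjusted p = 0.114 in limma-voom). With no filter on low counts all 3 were called, with adjusted p of 0.0372 for Cacna2d1, 0.00746 for Cacna2d3 and 0.0159 for Fgf12 in limma-voom. They were also called without single mice. Cacna2d1 was called without the SOD1G93A male of pool A (adjusted p = 0.0660 in limma-voom) and Cacna2d3 without the WT male of pool A (0.0642). Fgf12 was called without the WT male of pool A (0.0951) or the WT female of pool B (0.0701). The mice left out had the lowest SOD1G93A value of Cacna2d1 and the lowest WT values of Cacna2d3 and Fgf12. Leaving them out therefore widens the differences, and these calls add no support. Cacng2, an auxiliary subunit of AMPA receptors that was first found as a calcium channel subunit, is named here after its values were seen. It had −0.73 (−1.24 to −0.21, adjusted p = 0.150 in limma-voom), was lower in 6 of 6 pairs, and was called with no filter (0.0369) and without the SOD1G93A male of pool B (0.0410), the WT female of pool B (0.0560) or the WT male of pool A (0.0385). Cacng4, of the same list and likewise named after its values were seen, went the other way. With no filter it was called at 1.85 (adjusted p = 0.0419 in limma-voom). Nalcn, at −0.41, Cacnb4, at −0.56, Ank2, at 0.27, and Ank3, at −0.10, did not pass, and of these Cacnb4 was called without the WT male of pool A (−0.71, adjusted p = 0.0973 in limma-voom). In neurons the medians of the 5 lists lay between −0.04 and 0.05.

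The sexes and the interaction were fitted in the same models. For females against males 0 of 79 tests of the 10 genes were called in cell types by limma-voom, 3 had an unadjusted p under 0.05, and edgeR and DESeq2 called 0, where 0.159% of all tests were called. In neurons the log2 differences between females and males lay between −0.13 and 0.07. For the difference between the genotype effects of males and females 0 of 79 were called, 2 had an unadjusted p under 0.05, and edgeR and DESeq2 called 0, where 0.0058% of all tests were called. In neurons that difference lay between −0.22 and 0.21, with 95% intervals of up to 0.47 to each side, and in motor neurons the intervals reached 1.53 to each side.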

How the data were processed

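Nuclei of the lumbar spinal cord of 12 mice were sequenced in 3 pools. The authors aligned reads to a pre-mRNA reference of mm10 with CellRanger, so intronic reads count, and deposited the counts as UMIs per gene and nucleus without normalization. The authors assigned nuclei to mice by hashtag, removed nuclei with several or no hashtags, few genes or many mitochondrial UMIs, and annotated cell types and neuron sub-types. These labels were used as deposited, and doublets within a mouse are not marked. The deposited table of integrated values was not used.

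UMIs were summed per mouse and population. Genes passing filterByExpr at a minimum count of 10 were fitted with limma-voom (limma 3.58.1, edgeR 4.0.16, R 4.3.3) on TMMwsp factors, with the 4 groups of sex and genotype and the pool as terms and robust eBayes. Calls were made at a Benjamini-Hochberg FDR of 0.1 over all genes of a population. The models were tested on simulated counts. Ratios are means over mice of the log2 difference of CPM + 1. Cell types and sub-types were compared without a test. Alternatives were edgeR's quasi-likelihood test, DESeq2 1.42.0, other filters and normalizations, no pool term and leaving out each mouse.

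The 10 genes and the lists were chosen with earlier results of these data known. All 10 genes are named, and of the listed partners those called for genotype and up to 4 per list with the most UMIs in neurons and motor neurons. Some listed genes and markers, and the motor neuron count of the list of sodium channel beta subunits, are not reported here. For likeness the 2 genes of highest Pearson r are named. Any other gene, such as the markers Snap25 and Rbfox3 quoted as examples of their list, was chosen after its values were seen. Per mouse, 6411715 to 36668441 UMIs were available, with the fewest in ependymal cells and fibroblasts.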

Additional observations from a re-analysis of the deposited data

Results flagged for a closer look

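Within the 6 mice of a genotype, 4 of 40 groups of values held a mouse far from the others by Dixon's criterion, which chance passes in about 1 of 20 groups. All values are CPM on scaled library sizes. Cacna1d in neurons of the SOD1G93A male of pool A was at 422 CPM, where the other SOD1G93A mice had 465 to 487 CPM. In motor neurons the SOD1G93A female of pool C, with 1 nucleus and 27658 UMIs, had 136 CPM of Scn2a against 293 to 338 CPM in the others, and 305 CPM of Scn9a against 121 to 189 CPM. Cacna1e in motor neurons of the SOD1G93A male of pool C, from 5 nuclei, was at 217 CPM, where the others had 56.4 to 80.7 CPM. The causes were not tested.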

How the results depend on the processing

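Of the 10 genes, 0 were called for genotype in cell types with edgeR, DESeq2, TMM factors, a minimum count of 30, non-robust eBayes or no pool term, and 1 was called with no filter on low counts (Cacna1d in motor neurons). Leaving out 1 mouse at a time gave 0 to 1 calls. Cacna1d in motor neurons was called without the WT female of pool B or the WT male of pool A. These were its 2 lowest WT mice, so leaving out either widens the difference. Scn9a in astrocytes was called without the WT male of pool B (log2 fold change 0.84, adjusted p = 0.0929 in limma-voom, against 0.31 and 0.697 with all mice). In sub-types, for sex and for the difference between the sexes, 0 were called under every alternative run. Of the partners, 1 was called, and 0 with edgeR or with no pool term, 7 with no filter, and 0 to 8 when 1 mouse was left out. The extremes were 8 without the WT female of pool B, 7 without the WT male of pool A, and 0 without the WT male of pool C. There were 3 without the SOD1G93A female of pool B, the SOD1G93A male of pool A or the WT male of pool B, and 2 without the SOD1G93A male of pool B or the WT female of pool A. The cause was not tested. The pool, which pairs the mice as a replicate block, is a term of the design, and the fit without it gave Fgf14 −0.57 (adjusted p = 0.106) and changed no other call named here. Within nuclei of 8000 to 20000 UMIs, an alternative added after the depths were seen, in which some mice had 0 nuclei of a sub-type, the ventral to dorsal log2 ratio moved to 0.13 for Cacna1a and −0.17 for Cacna1d, and the inhibitory to excitatory one to −0.26 for Scn3a. The motor neuron to neuron log2 ratio ran over the alternatives from −0.60 to −0.08 for Scn9a, −0.20 to −0.08 for Scn1a, −0.65 to −0.34 for Cacna1c, 0.48 to 0.85 for Cacna1d, −1.85 to −1.32 for Scn3a and −3.13 to −2.66 for Cacna1e. Values below 1 SD crossed 0, the ventral to dorsal ratio of Cacna1b in the 6 WT mice (0.01 from −0.07), the inhibitory to excitatory ratio of Cacna1b with the mean CPM of single nuclei (0.01 from −0.02), and that of Scn2a, which ran from −0.04 to 0.03 over the alternatives. No value of 1 SD or more, and none of the genotype fold changes recomputed in motor neurons (6 of the 10 genes and Fgf14) changed sign. The motor neuron fit without mice under 5 nuclei was not run, since no SOD1G93A female remained. Motor neuron results are limited by 1 to 11 nuclei per mouse.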
